A study of Mus musculus with 2 samples.

Results

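The 500 peaks of open chromatin most specific to the surface epithelium of the fetal mouse testis were described here, out of 109215 peaks in the data and 65844 peaks on chromosomes 1 to 19 with 100 or more counts (the eligible peaks). They were chosen from 7492 nuclei. The 400 nuclei with the largest share of RNA molecules (UMIs) from *Upk3b*, *Upk1b*, *Krt19*, *Podxl*, *Muc16*, *Aldh1a2* and *Tmem132d* made up the surface nuclei, and the other 7092 nuclei made up the rest. For each peak the transposase cuts of a group were divided by all cuts of that group in peaks, in counts per 1000000 (CPM), and the members were the 500 peaks with the largest ratio of surface CPM + 1 over rest CPM + 1. The members were thus chosen by the contrast of surface against rest, and their values in that contrast are a description, with no test.

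Whole testes of embryos at E14.5 from a cross of homozygous *Nr5a1-cre* mice with homozygous *Rosa-tdTomato* females were frozen and their nuclei profiled by the 10x multiome assay, which reads RNA and accessible DNA (ATAC, a transposase that cuts open chromatin) from the same nucleus. Each embryo therefore carried both the Cre transgene, driven by the regulatory sequence of *Nr5a1*, a gene of steroidogenic and supporting cells, and the Cre-dependent red reporter. Surface and other nuclei shared this genotype, stage and tissue. There was 1 RNA library and 1 ATAC library, how many embryos they hold is not given in the sources read here, and no replicate stands behind any value, so no test between animals was possible. Intervals are exact at 95% and cover counting error only. Those of peaks are given on unique fragments, since the cuts of a fragment come in pairs, those of RNA on UMIs, and those of shares on the numbers of peaks or fragments.

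The surface epithelium, which descends from the coelomic epithelium, is the single cell layer that covers the gonad. It carries mesothelial genes such as uroplakins, keratins and *Wt1*, makes retinoic acid through *Aldh1a2*, and its precursor is a source of somatic cells of the early gonad. ATAC peaks far from gene starts often mark enhancers, short stretches where transcription factors bind, and TEAD factors, which act with the co-activators YAP1 and WWTR1, are among the factors known from epithelia.

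The bases of some members show CATTCC, the core of the TEAD binding site. Of the 30 words searched, it had the largest difference in percentage points between its shares in members and in eligible peaks. The central 200 bases are printed for the intronic member of *Elmod1*, which ranks 3 by ratio, for members whose nearest genes are *Aldh1a2* (at 105505 bp), *Msln* and *Wt1*, genes of mesothelium, and for an intronic member of *Ttll5* with 3 TEAD words in 200 bases. Sequences are the plus strand of RefSeq's GRCm38 (mm10), 5′ to 3′. Capitals mark the words of 5 families of factors on either strand. They are CATTCC of the TEAD factors, TAATTA of homeobox factors such as those of the LHX and EMX families, TGATTNAT where a PBX factor binds together with a HOX factor, TTGGCA as the shorter form of the site of NFI factors, and AGATAA of the GATA family.
Intron of *Elmod1*, chr9:53930914-53931113: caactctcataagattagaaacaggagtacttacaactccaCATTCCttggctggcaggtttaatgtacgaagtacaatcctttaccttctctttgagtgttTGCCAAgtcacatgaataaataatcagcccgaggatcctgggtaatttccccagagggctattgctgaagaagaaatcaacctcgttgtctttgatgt
Peak nearest to *Aldh1a2*, chr9:71321713-71321912: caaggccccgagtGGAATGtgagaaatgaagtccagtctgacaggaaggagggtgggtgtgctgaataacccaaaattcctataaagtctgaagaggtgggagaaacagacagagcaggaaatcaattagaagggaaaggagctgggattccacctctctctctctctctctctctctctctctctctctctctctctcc
Peak nearest to *Msln*, chr17:25756939-25757138: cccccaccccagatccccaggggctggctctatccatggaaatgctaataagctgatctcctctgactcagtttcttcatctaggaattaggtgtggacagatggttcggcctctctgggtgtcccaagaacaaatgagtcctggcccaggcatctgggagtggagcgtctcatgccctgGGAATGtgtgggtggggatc
Intron of *Wt1*, chr2:105134365-105134564: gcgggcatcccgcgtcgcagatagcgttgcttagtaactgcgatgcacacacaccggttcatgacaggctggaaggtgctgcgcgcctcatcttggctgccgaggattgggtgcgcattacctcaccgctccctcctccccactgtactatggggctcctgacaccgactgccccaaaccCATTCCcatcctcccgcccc
Intron of *Ttll5*, chr12:85859572-85859771: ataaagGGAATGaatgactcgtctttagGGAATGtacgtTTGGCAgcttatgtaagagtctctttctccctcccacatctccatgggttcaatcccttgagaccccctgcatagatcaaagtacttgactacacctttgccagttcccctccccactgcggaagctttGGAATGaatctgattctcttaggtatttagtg
The *Ttll5* member held its 3 TEAD words beside 1 NFI word, and the *Elmod1* member held 1 of each. Of the others printed above, each held 1 TEAD word and none of the other 4 words in these 200 bases. Capitals mark a match of letters, not a bound site.

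A second pair of members is printed for the homeobox word. The intronic member of *Wnt7b* ranks 4 by ratio, and the member 222426 bp from the start of *Gm43177*, whose nearest coding gene is *Dhx15*, ranks 17.
Intron of *Wnt7b*, chr15:85567113-85567312: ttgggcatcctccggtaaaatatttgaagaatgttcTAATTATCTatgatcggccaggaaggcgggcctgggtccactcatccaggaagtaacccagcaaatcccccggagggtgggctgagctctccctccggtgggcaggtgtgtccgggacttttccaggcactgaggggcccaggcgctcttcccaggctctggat
Peak nearest to *Gm43177*, chr5:51894334-51894533: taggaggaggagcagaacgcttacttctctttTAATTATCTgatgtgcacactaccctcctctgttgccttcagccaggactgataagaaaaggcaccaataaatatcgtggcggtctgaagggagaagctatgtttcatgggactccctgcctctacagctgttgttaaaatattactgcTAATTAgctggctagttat
In both, a GATA word on the minus strand shares letters with the end of a TAATTA word, so that the capitals run together. This joined form, on either strand, occurred in 4 members (0.8%) and in 0.2779% of eligible peaks. The other 19 of the 23 members that held both words did not hold this form. Overlaps of fewer letters were not searched.

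The label was checked against markers. Of 8 surface epithelium markers that the rule did not use, 7 had 20 or more UMIs in all nuclei, and 5 of these were at least 2-fold higher in the surface nuclei on the scale of CPM + 5. Over all 19446 genes with as many UMIs, 2.96% were that much higher and 4.43% that much lower. *Gpm6a*, a membrane glycoprotein, stood at 344.9 CPM (326.6 to 363.9) in surface nuclei and 8.096 CPM in the rest. *Bnc1*, a zinc finger factor of epithelia, stood at 159.0 against 9.372 CPM, and *Wt1* at 1033.3 against 243.7 CPM. *Krt8* and *Krt18* were low in both groups, at 2.844 and 2.585 CPM in the surface nuclei, and *Msln* had 8 UMIs there. Clusters made from RNA placed 372 of the 400 (93.0%) in the surface epithelium-like class, beside 11 progenitor-like, 6 unnamed, 5 germ-like, 2 Leydig-like, 2 Sertoli-like, 1 endothelial-like and 1 pericyte-like nuclei. The surface epithelium-like class took its name from the genes of the rule, so its count is no separate check of the label. Doublet scores marked 20 of the 400.

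Markers of other cell types were also detected in the surface nuclei, and the sums of some lists were higher there than in the rest. All 5 Leydig cell markers were detected there, summing to 265.5 CPM against 830.5 CPM in the rest, led by *Cyp17a1* at 158.5 CPM. The 4 Sertoli cell markers summed to 44.72 against 144.0 CPM, 5 germ cell markers to 57.13 against 403.7 CPM with *Nanos2* at 0, and 4 mesonephric mesenchyme markers to 31.54 against 147.4 CPM. The 5 endothelial markers summed to 101.1 against 106.8 CPM, with *Kdr* alone higher, at 62.56 against 18.4 CPM. Of 5 mesonephric duct markers, *Cdh16*, *Wfdc2* and *Wnt9b* were at 0 in the surface nuclei, and the list summed to 3.878 against 0.9438 CPM, led by *Wnt7b*. The 4 contractile markers summed to 264.7 against 159.2 CPM, of which *Mylk* made up 243.3 CPM while *Actg2* was at 0, and the 6 progenitor markers to 1031.7 against 986.8 CPM. Marker sums of supporting-like, immune, pericyte, erythroid and glial cells lay between 8.531 and 66.44 CPM in the surface nuclei and between 23.97 and 98.36 CPM in the rest. How far RNA of other types in these nuclei bears on the members was not tested.

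Depth was similar in RNA, with a median of 8280.5 UMIs in surface and 8242.5 in other nuclei, and lower in ATAC, with medians of 2643.5 and 3339 cuts in peaks. In all, 1250979 cuts of the surface nuclei and 27275365 of the rest lay in peaks, so that 1 cut was worth 0.7994 CPM in the surface group and 0.03666 CPM in the rest. All barcodes of the RNA matrix were also in the fragment list. The score that chose the nuclei ran without a gap across its limit, at 0.09735% of UMIs in nucleus 400 and 0.09669% in nucleus 401, and 50 nuclei lay within 0.01 percentage points of the limit.

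The members were sparse peaks with a strong surface excess. Surface levels ran from 15.99 to 75.14 CPM with a median of 26.38, and rest levels from 2.163 to 15.03 CPM with a median of 3.96. Behind these stood 20 to 94 surface cuts in 9 to 46 nuclei, and 59 to 410 rest cuts. The ratio that ranked the members ran from 18.57 down to 4.13 with a median of 5.058, against 0.8939 over eligible peaks, and exceeded 10 in 11 members.

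**Figure D1:**
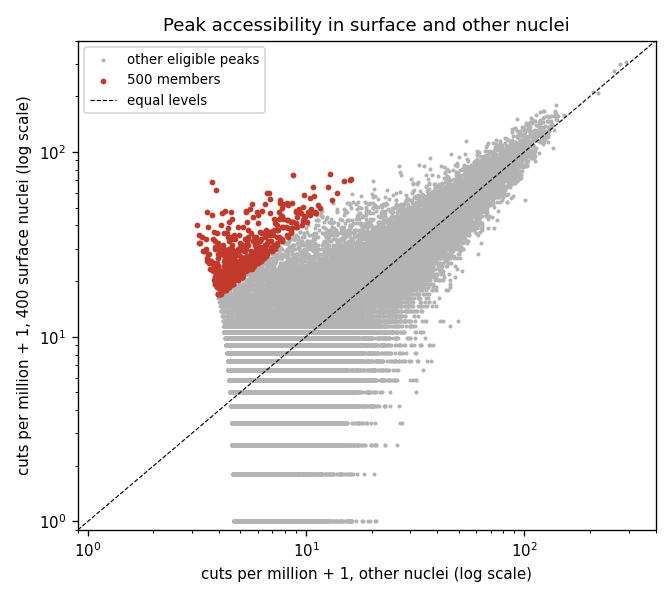
Each point is 1 eligible peak, with its CPM + 1 in the 7092 other nuclei on the horizontal axis and in the 400 surface nuclei on the vertical axis, both on log scales; the dashed line marks equal levels. The 500 members in red form the upper left edge, between 2.163 and 15.03 CPM in the rest, because the ratio of the 2 axes chose them.

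Counting error was wide for single peaks. On unique fragments, members held 10 to 48 in surface nuclei and 31 to 225 in the rest, and the plain fold of surface over rest had a median of 5.873. The upper limits of 73 members reached the lower limit of the member ranked first, so the order near the top is not resolved. At the other end the members ranked 499 and 500 and the first peak outside had the same 31 surface and 143 rest cuts and a ratio of 4.13, and the next peak outside had 27 and 122 cuts and a ratio of 4.1263. The membership at that edge rests on file order.

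The member of largest ratio had *Wnt2b*, which encodes a secreted Wnt ligand, as its nearest coding gene. It had 85 surface cuts (67.95 CPM) and 74 rest cuts (2.713 CPM). On fragments this was 75 per 1000000 (54.5 to 100.7) against 3.354 (2.428 to 4.518). The plain fold of surface over rest was 22.36 (14.35 to 34.86). *Wnt2b* RNA was at 20.68 CPM (16.4 to 25.74) in surface nuclei and at 3.058 CPM (2.675 to 3.479) in the rest.

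The member ranked second lay in an intron of *Myo18a* (chr11:77847897-77848773), an unconventional myosin, with 61.55 CPM against 2.86 CPM. *Myo18a* RNA was at 71.87 CPM in surface nuclei and 85.66 CPM in the rest. The host gene's RNA was thus no higher in the surface nuclei, unlike the peak. The third, in an intron of *Elmod1* (chr9:53930545-53931482), which encodes a regulator of small GTPases, had 46.36 against 2.53 CPM, and *Elmod1* RNA was at 56.87 CPM (49.61 to 64.91) against 2.26 CPM (1.933 to 2.626). The *Wnt7b* intron member (chr15:85566772-85567653) had 39.17 against 2.163 CPM, with only 13 and 10 UMIs of *Wnt7b* behind its RNA levels of 3.361 and 0.1329 CPM.

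Ranks 5 to 7 lay near genes of the rule itself or of mesothelium. The fifth sat at the start of the non-coding gene *Gm43154*, 65764 bp from the start of *Podxl*, an anti-adhesive sialomucin, and stood at 44.76 CPM against 2.713 CPM. A further member at the same non-coding gene, 49567 bp from *Podxl*, stood at 46.36 against 6.489 CPM. *Gm43154* itself had 4 UMIs in the surface nuclei, while *Podxl* RNA, part of the rule, was at 317.7 CPM against 18.25 CPM. The sixth lay 19797 bp from *Bnc1* (45.56 against 3.116 CPM), and the seventh at the start of *Upk3b*, a uroplakin of mesothelium and urothelium, with 59 and 89 cuts (47.16 against 3.263 CPM).

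The remaining members of the first 10 lay by genes with little or unspecific RNA. The eighth was a second intronic site of *Ttll5* (38.37 CPM in surface nuclei), whose RNA was at 135.5 CPM against 188.5 CPM in the rest. The ninth sat at the start of *Gm15882*, which had no UMI in any kept nucleus. The tenth (chr13:72198577-72199393) had *Irx1* as its nearest gene, with no UMI in the surface nuclei and 1 in the rest. Sertoli-like nuclei held this peak at 23.52 CPM, beside 46.36 CPM in surface nuclei and 0.7444 CPM in Leydig-like nuclei.

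By surface level rather than ratio, the most accessible member was chr4:45767708-45768617, between genes and 30405 bp from *Aldh1b1*, with 94 cuts (75.14 CPM) in surface nuclei and 11.84 CPM in the rest. An intronic member of *Lamc3*, a laminin chain (chr2:31903924-31904970), followed at 73.54 against 7.736 CPM. A second member near *Bnc1*, at 64257 bp, reached 68.75 against 13.9 CPM. These high members were also more open in the rest than the typical member, with ratios of 5.929, 8.533 and 4.682.

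Further down the ranking were members whose nearest genes belong to the retinoic acid pathway or the mesothelium. A member 105505 bp from *Aldh1a2*, the enzyme that makes retinoic acid, had 59 cuts (47.16 CPM) against 4.29 CPM. *Krt19*, a keratin, had 1 at 21646 bp (47.96 against 4.546 CPM), and *Msln*, the cell surface protein mesothelin, had 1 at 2218 bp (37.57 against 3.41 CPM). *Upk1b* had 2, in an intron and at its start (29.58 and 28.78 CPM in surface nuclei), and *Crb2*, an apical polarity protein, had 2 in introns (29.58 and 24.78 CPM). With *Upk3b* and *Podxl*, 5 of the 7 genes of the rule were thus the nearest coding gene of members, 7 in all, while *Muc16* and *Tmem132d* were of none. Of all 15512 coding genes with 20 or more UMIs, 389 were the nearest coding gene of a member. RNA of the genes of the rule chose the nuclei, so this count is a description only.

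The intronic member of *Wt1*, 3150 bp from the gene's start (chr2:105134033-105134896), was less exclusive. It stood at 49.56 CPM in surface nuclei and 20.28 CPM in surface epithelium-like nuclei outside the 400. Mesonephric mesenchyme-like nuclei held 19.09 CPM and Sertoli-like nuclei 12.78 CPM. Those are also classes with *Wt1* RNA, at 515.9 and 846.0 CPM, and Leydig-like nuclei, with 56.13 CPM of *Wt1* RNA, held the peak at 5.211 CPM.

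Members lay 3 at a time in 3 stretches of under 50 kb. On chromosome 19, 17723 bp over *Tmem258* and *Myrf*, a membrane-bound transcription factor, held 3 members that summed to 135.9 CPM in surface and 21.04 CPM in other nuclei. *Myrf* RNA was at 141.9 CPM (130.3 to 154.3) against 7.311 CPM (6.713 to 7.949). On chromosome 14, 36427 bp by the non-coding gene *Gm47906* summed to 125.5 against 19.36 CPM, and on chromosome 4, 12158 bp by *Ttc22* and *Pars2* summed to 99.92 against 19.14 CPM. *Sulf1*, which trims heparan sulphate, and *Man1a*, a Golgi mannosidase, each were the nearest coding gene of 3 members spread more widely. *Sulf1* RNA was at 1271.1 against 125.6 CPM and *Man1a* RNA at 1178.8 against 155.1 CPM.

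A member at the start of the non-coding gene *Gm33321* on chromosome 14, whose nearest coding gene is *Fgf9* at 225094 bp, had 63.15 CPM in surface nuclei and 11.55 CPM in the rest. *Gm33321* RNA was at 87.12 CPM (78.07 to 96.94) against 2.845 CPM, and RNA of *Fgf9*, a growth factor, at 185.4 CPM (172.0 to 199.4) against 11.59 CPM. Sertoli-like nuclei held *Fgf9* RNA at 30.51 CPM and the peak at 9.204 CPM.

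Nuclei that the rule did not take allowed a look at the members outside the chosen group. The RNA clusters placed 211 further nuclei in the surface epithelium-like class, and these were counted in the rest, so their cuts worked against the ratio. They held 6963.7 cuts in members per 1000000 cuts in peaks, below the 14621.3 of the 400 and above every other class. Mesonephric mesenchyme-like nuclei held 3316.2, Sertoli-like 2482.1, progenitor-like 2185.1, germ-like 1716.6 and Leydig-like 1569.3. A small unnamed cluster led by *Rmst* and *Pax8*, with 84 nuclei, held 4141.2. Contractile cells had no class of their own here. At the finer resolution of 0.6 a contractile-like cluster of 911 nuclei with *Myh11* and *Myocd* among its leading genes appeared, while the progenitor-like nuclei outside the 400 fell from 3305 to 2299, and its level at the members was not computed.

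On unique fragments the outside surface epithelium-like nuclei held 7816.6 per 1000000 (7543.5 to 8097.2), against 3780.8 (3619.0 to 3947.9) in mesonephric mesenchyme-like nuclei and 4807.8 (4439.9 to 5198.0) in the *Rmst* and *Pax8* cluster. These intervals, of counting error only, did not overlap. By nucleus, the quartiles of member cuts per 1000000 cuts in peaks were 4761.5 and 11086.4 in the outside nuclei. They were 2435.2 and 5247.0 in the *Rmst* and *Pax8* cluster, a range that overlaps with that of the outside nuclei. In mesonephric mesenchyme-like nuclei they were 2076.1 and 4306.6, a range that does not. The typical nucleus opened 20 members among the 400 and 11 among the 211, but 7 in the unnamed cluster led by *Erbb4* and *Hsd17b3*, 6 in that led by *Rmst* and *Pax8*, 5 in the mesonephric mesenchyme-like, 3 in the Sertoli-like, progenitor-like and germ-like, and 1 in the Leydig-like class. These counts are not adjusted for depth, and the *Erbb4* cluster had the most cuts, with a median of 6255.5 in peaks against 2643.5 in the 400. These nuclei share the library with the 400, and some of the RNA that placed them is the RNA of the rule.

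**Figure D2:**
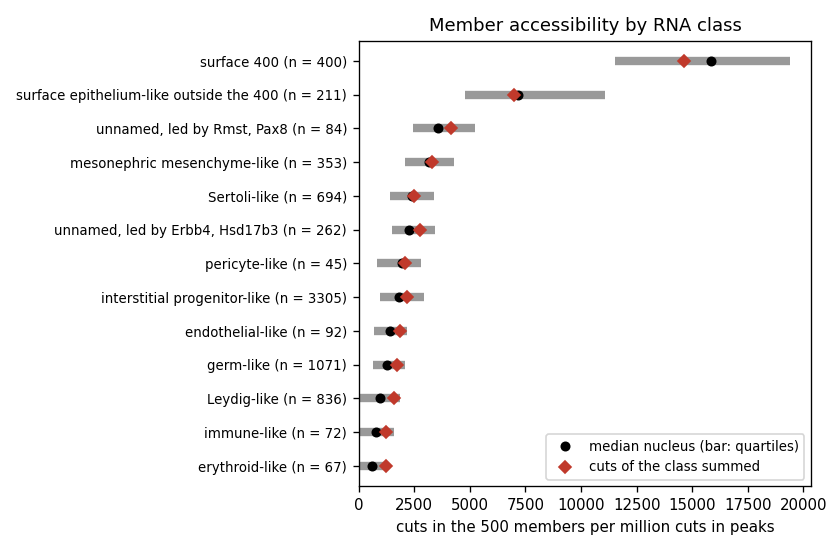
For each RNA class (number of nuclei in brackets) the red diamond gives all cuts in members per 1000000 cuts in peaks, the black point the median nucleus, and the grey bar its quartiles. The 211 surface epithelium-like nuclei outside the 400 sit at 6963.7, between the 400 at 14621.3 and all other classes, which lie at or below 4141.2.

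Peak by peak, 333 of the 500 members (66.6%) were more accessible in the 211 nuclei than in each of the 5 other classes with over 300 nuclei, where 17.9% of eligible peaks were. Among those 5 classes the highest level fell to mesonephric mesenchyme-like nuclei for 215 members (43.0%, against 23.01% of eligible peaks) and to Sertoli-like nuclei for 132 (26.4%, against 21.36%). Progenitor-like nuclei were highest for 84 (16.8%, against 20.56%), germ-like for 37 (7.4%, against 20.03%) and Leydig-like for 32 (6.4%, against 15.04%). These counts were also taken by rank, which is the ratio of the rule over a rest that holds these classes, so they are a description only. In the first 100 members by ratio 72 were highest in the 211 nuclei, as were 72 at ranks 101 to 200, and in the last 100 members 57 were.

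Levels of the leading members in the outside nuclei were unequal. The *Wnt2b* member stood at 5.965 CPM there, the *Aldh1a2* member at 4.772 CPM and the *Msln* member at 5.965 CPM, against 28.63 CPM at the *Myo18a* member and 29.83 CPM at the *Krt19* member. For the *Aldh1a2* member that is below the 5.183 CPM of progenitor-like and 5.207 CPM of mesonephric mesenchyme-like nuclei. The levels of the *Wnt2b*, *Aldh1a2* and *Msln* members in the outside nuclei, and that of the *Aldh1a2* member in mesonephric mesenchyme-like nuclei, rest on a few cuts.

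Accessibility of the members fell along the score that chose the nuclei. Nuclei ranked 1 to 100 by the share of the 7 genes held 17266.6 member cuts per 1000000, and those ranked 301 to 400 held 11537.0. The next nuclei, which played the part of the rest, held 6502.6 (ranks 401 to 500), 5358.9 (501 to 600) and 4017.9 (601 to 800), and ranks 1601 to 7492 held 2051.1. The members were chosen on the first 400 nuclei, so the step at the limit is not read here. Outside it the fall went with the number of surface epithelium-like nuclei, 47 of 100 at ranks 401 to 500 and 31 of 100 at ranks 501 to 600.

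By position, members were mostly distal. Only 64 (12.8%) lay within 1 kb of a gene start, against 32.79% of eligible peaks. Between genes lay 235 (47.0%, against 32.34%) and in introns 187 (37.4%, against 30.73%). Coding exons held 3 (0.6%, against 1.803%) and other exons 11 (2.2%, against 2.327%). The median distance to a gene start was 23058 bp against 8992 bp, and 420 (84.0%, against 92.06%) lay within 100 kb of one. The same choice made for other classes gave promoter shares of 10.4% for mesonephric mesenchyme-like, 13.6% for Sertoli-like, 12.6% for Leydig-like, 9.6% for progenitor-like and 27.8% for germ-like nuclei, so a low promoter share was not particular to the surface set. The members sat on every chromosome considered, at 0.4653% (chromosome 15) to 1.1% (chromosome 1) of its eligible peaks.

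The members counted at promoters were unlike most eligible promoter peaks in base composition. Distance was taken to the interval listed for a gene's start, which can be long. Some of these members may thus lie away from any single start, which was not tested. Only 2 of the 64 (3.125%) held 10 or more CpG dinucleotides in their central 300 bases, against 66.76% of eligible promoter peaks, and 48 of them (75%, against 87.33%) were at coding genes. Over all members the median GC content was 50.33%, against 52.33% of eligible peaks. Beside *Gm43154*, *Upk3b*, *Gm15882* and *Upk1b*, the promoter members of largest ratio were at *Thsd4*, *Macrod2os2*, *Olfr463*, *Gm44812*, *Mirt1* and *Tmem269*. *Thsd4*, a protein of microfibrils, had RNA at 652.0 CPM (626.8 to 677.9) against 156.7 CPM (153.9 to 159.6), whereas *Mirt1* had 6 UMIs in the surface nuclei.

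Most members lay near the minimum of 100 counts. The members' median was 140 counts, and 401 of them (80.2%) had under 200 counts, as had 50.22% of eligible peaks. With a minimum of 200 counts, 99 of the members stayed among the first 500, and the promoter share was 20.2% against 49.22% of the peaks then eligible. The first 500 peaks at that minimum had a median ratio of 3.151, and the lowest ratio was 2.651.

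The words of the DNA were not used by the rule. The TEAD word CATTCC occurred in the central 300 bases of 184 members (36.8%, interval 32.56 to 41.2) and of 17.85% of eligible peaks. Further words that members held at 1.5 times the eligible share or more were TAATTA of LHX and EMX factors (14.6% against 6.511%), TGATTNAT of PBX with HOX (8.4% against 3.584%), the HNF1 word GTTAAT (12.2% against 7.014%), the NFI word TTGGCA (30.8% against 18.16%), the TBX word TCACACC (5.6% against 3.407%) and the GATA word AGATAA (23.8% against 14.96%). These were 7 of 30 words searched, on both strands. Among distal peaks 5 of the 7 kept 1.5 times the eligible share, whereas the GATA word stood at 25% against 18.44% and the HNF1 word at 11.7% against 8.567%. The words are short, so that many matches need not be sites.

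The TEAD word was more frequent in members at promoters, in introns and between genes, the places compared. In members at promoters the share was 37.5% against 12.97% of eligible promoter peaks, in introns 38.5% against 20.71%, and between genes 34.89% against 20.32%. A count of 2 or more TEAD words was found in 43 members (8.6%) and in 2.081% of eligible peaks. At the 200-count minimum the share was 30% against 15.8%. Within the peaks, 34.76% of the 233 TEAD words lay within 50 bases of the centre, as did 35.64% of those in eligible peaks, so they were not more central in members.

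Without any list of motifs, 7-base words were ranked by the ratio of their share in members to that in eligible peaks. Among 1922 words held by 25 or more members, the largest ratio was that of GCATTCC, a TEAD word with 1 further base, in 73 members (14.6% against 4.623%), and CATTCCA followed with 90 members (18% against 5.867%). The third was AATTAAC (6.8% against 2.346%), which overlaps the homeobox and HNF1 words. Of the first 10 words, ACATTCC, then GAATGCC, then AGGAATG and ATGGAAT also shared 5 or more bases with the TEAD word or its reverse. The order depends on the measure, since CTCCCAC, of lower ratio and with no TEAD word, differed by more percentage points (25.4% against 12.05%).

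Words of other regulators were scarcer in members. The ETS word CCGGAAG was in 0.6% of members against 5.559% of eligible peaks, and the SP word CCCGCCC in 4.8% against 17.81%, both common in CpG-rich promoters. In distal peaks the gaps were narrower, at 0.6881% against 2.572% for ETS and 4.587% against 7.81% for SP. They were not particular to the surface set, since the sets of the 4 other somatic classes held ETS in 0.6% to 1.2% and SP in 1.2% to 5.4%. The NR5A word CAAGGTC, that of the steroidogenic factor encoded by *Nr5a1*, was in 4.2% against 9.554%, and in distal peaks in 3.899% against 11.57%. The CTCF word AGGGGGC was in 6.2% against 11.43%. The GRHL word of many other epithelia, AACCNGTT, was in 0.6% against 1.627%, but at the 200-count minimum it was in 2% against 1.419%, so its direction rests on that choice.

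The other words searched had shares in members within 1.5 times those in eligible peaks, in either direction, except those of GLI and CREB. Highest relative to eligible peaks was the E-box of ZEB and SNAI repressors, CAGGTG, at 24.2% of members against 16.83%. The AP-1 word TGANTCA, common at enhancers of many cells, was at 10.8% against 7.931%, and at the 200-count minimum at 12.6% against 6.444%, which is past 1.5 times. The CEBP word TTGCNNAA was at 14% against 10.97%. Lower in members was the short word of nuclear receptors, AGGTCA, at 15.2% against 21.08%, and the word searched for TFAP2 factors, GCCNNNGGC, at 11% against 16.33%. In distal peaks the TFAP2 word was nearly equal, at 11.47% against 11.61%, and AGGTCA was at 15.37% against 24.75%. The word GCGTGGG, read by WT1 and EGR factors, was in 3.8% of members and 4.629% of eligible peaks. Shares also lay close for the MEIS word TGACAG, at 18.6% against 18.75%, and for the TCF21-type E-box CAGCTG, at 26% against 28.89%. The KLF word CCACCC was at 29.6% against 30.87%, and the NFY word CCAAT at 29.4% against 31.52%. For SOX factors AACAAT was searched (8.6% against 9.649%), for FOX factors GTAAACA (4.4% against 3.753%) and for RUNX factors TGTGGTT (5.6% against 5.167%). The STAT word TTCNNNGAA was at 9.6% against 8.724% and the EBF word CCCNNGGG at 11% against 13.28%. The rarest were the words of OSR, CAGTAGC, at 2.6% against 3.309%, of GLI, GACCACC, at 2.2% against 3.39%, and of CREB, TGACGTCA, at 0.4% against 1.103%. In distal peaks the CREB word was nearly equal, at 0.4587% against 0.461%, and the GLI word was at 1.606% against 3.464%.

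Many members held words of more than 1 of the 5 families printed in capitals. None of the 5 was found in 130 members (26.0%) and in 53.75% of eligible peaks. Words of 2 families were in 130 members (26.0% against 10.51%), of 3 in 30 members (6.0% against 1.848%) and of 4 in 4 members (0.8% against 0.1898%). Each of the 5 words was itself more frequent in members, and whether they met more often than their own shares give was not tested. TEAD and NFI words shared 61 members (12.2% against 3.613%), as in the printed *Elmod1* and *Ttll5* members. Members with the TEAD word were highest in the outside surface epithelium-like nuclei in 113 of 184 cases (61.41%), and those without it in 220 of 316 (69.62%). For TAATTA the order was the opposite, with 60 of 73 (82.19%) against 273 of 427 (63.93%). For the other 3 words the shares with and without the word lay closer, between 65.35% and 70.59%.

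Compared with the 500 peaks most specific to each of 5 other classes, the surface set held the most TEAD words. Their shares were 24.4% in the Sertoli-like, 23.2% in the mesonephric mesenchyme-like, 21.0% in the progenitor-like, 15.2% in the Leydig-like and 10.8% in the germ-like set, all below the lower limit of the surface set, 32.56%. TAATTA was more frequent in the progenitor-like set (21.4%) than in the surface set (14.6%) and at 3.0% to 6.4% in the other 4 sets. NFI words were as frequent in the mesonephric mesenchyme-like set (30.8%), where TGATTNAT was more frequent (12.8%) than in the surface set (8.4%). The GATA word, in 23.8% of the surface set, was in 29.6% of the Sertoli-like, 27.4% of the progenitor-like and 26.2% of the Leydig-like set, and the HNF1 word was in 14.2% of the progenitor-like set against 12.2%. The NR5A word was in 31.4% of the Leydig-like, 30.4% of the Sertoli-like and 9.0% of the progenitor-like set, and in 3.4% of both the mesonephric mesenchyme-like and the germ-like set. Of the members, 9 (1.8%) were also in the mesonephric mesenchyme-like set, 1 (0.2%) each in the Sertoli-like and germ-like sets and none in the other sets. Members made up 0.7594% of eligible peaks. The other classes belong to the rest in the ratio that chose the members, so low overlap was built in.

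**Figure D3:**
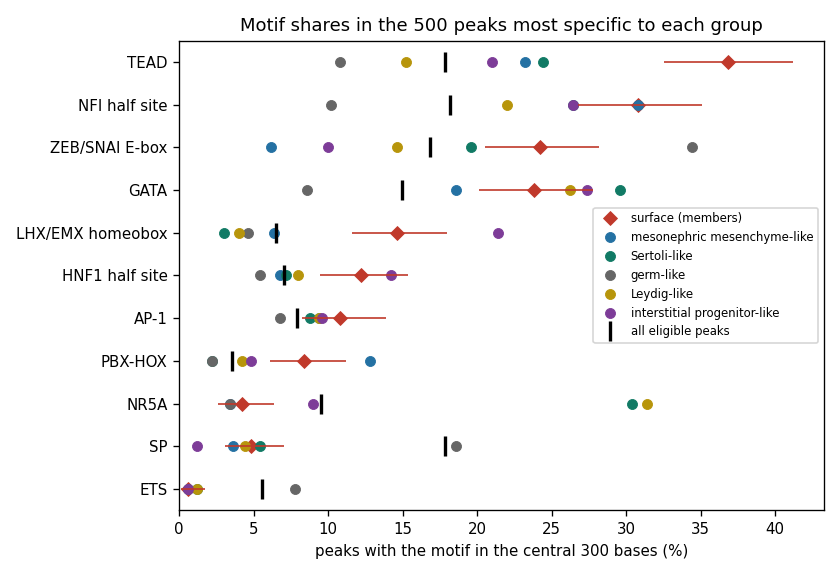
The share of peaks with each word in the central 300 bases is plotted for the 500 members (red diamonds with exact 95% intervals), for the 500 peaks most specific to each of 5 other classes (circles) and for all eligible peaks (black bars). The surface set lies furthest right for TEAD, at 36.8%, and among the lowest for NR5A, at 4.2%.

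RNA of the factors that read such words was measured in the same nuclei. Of the TEAD genes, *Tead1* was the most abundant, at 728.8 CPM in surface nuclei and 499.1 CPM in the rest, and *Tead4* the most unequal, at 27.92 CPM (22.9 to 33.71) against 4.334 CPM (3.876 to 4.831). The co-activator *Wwtr1* was at 339.4 CPM (321.3 to 358.3) against 158.1 CPM, and *Yap1* at 177.1 CPM (164.1 to 190.9) against 223.5 CPM. Among homeobox genes *Emx2* was at 96.43 against 14.6 CPM and *Lhx9* at 304.0 against 124.0 CPM, *Nfib* was at 3350.6 against 1043.9 CPM and *Nfia* at 2066.0 against 1803.5 CPM. Of the GATA genes *Gata6* was at 298.3 against 86.66 CPM, while the more abundant *Gata4* was nearly equal, at 596.1 against 593.1 CPM. *Nr5a1* itself was at 14.48 CPM (10.94 to 18.8) against 85.2 CPM (83.13 to 87.31). The RNA of a factor does not show its binding, and binding was not measured.

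In the list of factors of the motif families 52 of 56 genes could be compared, of which 9 were at least 2-fold higher and 6 at least 2-fold lower in surface nuclei, and the median ratio was 1.198. Over all genes 2.96% were higher and 4.43% lower. Of 20 gonad surface transcription factors 6 were higher and 2, *Nr5a1* and *Tbx3*, were lower, with a median ratio of 1.797. Genes of this list that were the nearest to members, at any distance, included *Wt1*, *Emx2*, *Bnc1*, *Nr2f2* and *Meis1*. Of 20 mesothelial genes outside the rule 17 could be compared, of which 10 were higher and 1, *Cdh1*, was lower. Among all 20, compared or not, 6 genes had 8 members. Of all 15512 coding genes with 20 or more UMIs, 389 were the nearest coding gene of a member. Of 15 retinoic acid genes *Aldh1a2* was the only one that was higher, at 556.6 CPM against 39.72 CPM, while *Aldh1a1* and *Cyp26b1* were lower. *Aldh1a2* is a gene of the rule, so its excess was set by the choice of nuclei. Of 20 junction and polarity genes *Cdh3*, *Crb2* and *Ezr* were higher, and *Cdh1* and *Pkp2* lower. The nuclei were chosen by RNA, so RNA differences between them are a description.

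RNA of the genes nearest to members was shifted towards surface nuclei. A gene could be compared for 346 members, and it was at least 2-fold higher in surface RNA for 89 of them (25.72%) and at least 2-fold lower for 5 (1.445%), where over all eligible peaks 5.79% were higher and 6.9% lower. With the nearest coding gene the share was 126 of 429 (29.37%, against 7.02%), and 7 were lower against a background of 7.74%. Both peaks and RNA were compared between the same surface and other nuclei, so the counts describe those nuclei and are no separate evidence. Genes of the rule, whose RNA chose the nuclei, are among those counted.

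**Figure D4:**
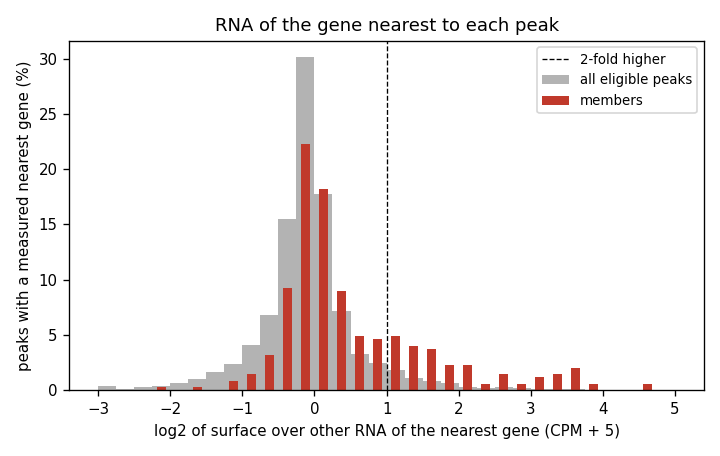
The horizontal axis gives log2 of surface over rest RNA (CPM + 5) of the gene nearest to each peak, and the vertical axis the share of peaks with a measured nearest gene, for members (red) and all eligible peaks (grey); values beyond the ends are counted in the end bins. The members' bars reach further right, with 25.72% past the dashed 2-fold line against 5.79%.

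The shift was larger for members close to the gene. Within 1 kb of the start 21 of 50 genes were higher (42.0%, against 6.052%), at 1 to 10 kb 20 of 66 (30.3%, against 3.977%), at 10 to 50 kb 27 of 120 (22.5%, against 4.945%) and beyond 50 kb 21 of 110 (19.09%, against 8.6%). Most members thus had a nearest gene whose RNA was not 2-fold higher in surface nuclei. The 5 nearest genes that were lower were *Ank1*, *4930471E19Rik*, *Hs3st1*, *Kcnj3* and *Robo2*, which were named after their values were seen. *Kcnj3*, a potassium channel subunit, was at 80.4 CPM (71.71 to 89.85) in surface nuclei and 361.5 CPM (357.3 to 365.9) in the rest.

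The fragments over the members also differed in length between groups. Fragments under 150 bp, which come mostly from DNA free of nucleosomes, made up 68.71% (67.77 to 69.63) of those of surface nuclei at members and 66.37% of theirs at eligible peaks. In the rest the share at members was lower, at 61.83% (61.31 to 62.35), against 66.66% at eligible peaks. Surface epithelium-like nuclei outside the 400 had 67.0% (65.31 to 68.66) against 67.33%. Germ-like nuclei had the lowest share among the larger classes, 54.83% (53.36 to 56.29) against 62.29%. With a limit of 100 bp the surface share was 51.44% at members and 52.85% at eligible peaks, so the direction of that difference turned with the limit, and in the rest it was 48.45% against 53.51%.

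Cut sites around peak centres showed a summit in every group, of unequal height. Levels here are means per 20-bp bin, per 1000 peaks and per 1000000 of all cuts of the group, in peaks or not. Within 100 bases of the centre surface nuclei had a mean of 411.3 at members, 15.87 times the level at 800 to 1000 bases. The outside surface epithelium-like nuclei had 184.8 (9.608 times), mesonephric mesenchyme-like 81.24 (7.53 times), Sertoli-like 65.89 (6.524 times), progenitor-like 56.59 (5.412 times) and germ-like nuclei 33.34 (3.763 times). At other eligible peaks the same groups lay closer together, between 163.5 and 215.8.

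**Figure D5:**
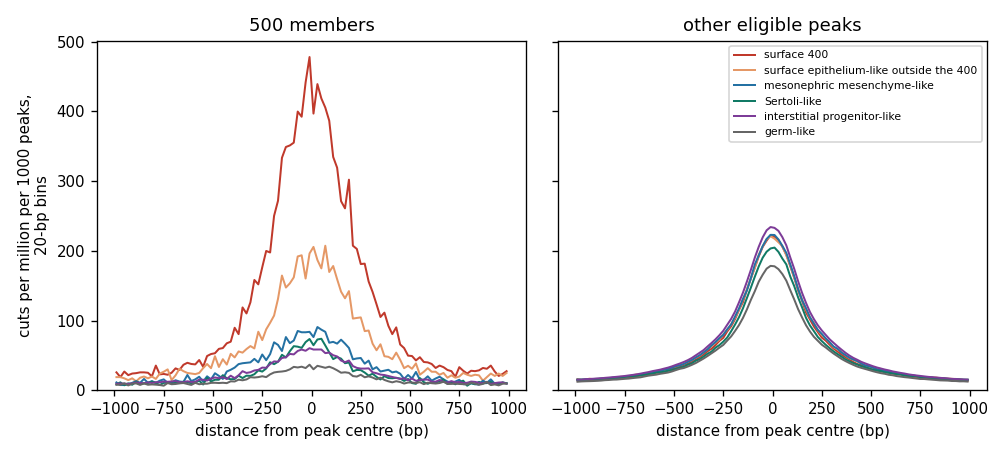
Transposase cuts per 1000000 of all cuts of the group and per 1000 peaks are plotted in 20-bp bins against the distance from the peak centre. The 500 members are on the left and the other eligible peaks on the right, with 1 line per group of nuclei. At members the surface nuclei rise to a mean of 411.3 per bin in the central 200 bases and the outside surface epithelium-like nuclei to 184.8. At the other peaks the lines lie closer together, with means from 163.5 in germ-like to 215.8 in progenitor-like nuclei.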

How the data were processed

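A library of RNA and a library of ATAC from the same nuclei of E14.5 testes were analysed. The authors ran Cell Ranger ARC 2.0.1 against mm10, per the labels, and deposited its raw counts with no normalization: UMIs for each gene and cuts for each peak of a single set called on the whole library, beside a list of 58448458 unique fragments. The study's later removal of doublets and of ambient RNA is not part of these counts, and its filter on blacklisted regions was not applied here. Of 9833 barcodes, 7492 with 2000 to 50000 UMIs, under 10% mitochondrial UMIs and over 500 cuts in peaks were kept.

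Members followed the stated rule. The members and gene lists were chosen with earlier results of these data known. Peaks named are the 10 of largest ratio, the 10 of highest surface CPM, the 10 promoter members of largest ratio, members nearest to a listed gene, and stretches of 50000 bp with 3 or more members. Genes named are their nearest genes, those of the rule, those with the most members and those of the lists. Nuclei were clustered on RNA with leidenalg 0.10.2 (2000 variable genes, 30 components, 20 neighbours, resolution 0.3), and clusters took the class whose markers scored highest. A cluster of far fewer UMIs than usual, with no marker of its class among its leading genes, was to be left unnamed. A cluster stayed unnamed if its 10 leading genes held more markers of a different class than of its own, if under 3 of its class's markers were detected, or if it shared 5 or more leading genes with a higher-scoring cluster of another name. The last of these was set after the data were seen. Scrublet, run in scanpy 1.11.5, gave doublet scores, and the 449 nuclei (5.993%) of highest score were marked, which were kept except where stated. Gene starts came from the deposited feature table, exons and introns from GENCODE vM21, bases from RefSeq's GRCm38. The start of a gene is an interval there, and a peak inside that interval was given a distance of 0. Matches of fragments to peaks used any overlap of 1 base. The ranking was tested on simulated data over 109215 peaks, where it recovered 42.0% of 50 peaks raised 3-fold and 100.0% of those raised 5-fold or more. The raised peaks had more counts before the raise than the median member has in all. As many peaks were picked as were raised, and counting error was the only spread. The recovery therefore does not carry over to the members. No p-value was computed, since nuclei do not replicate the experiment. Alternatives were the number of nuclei, the score genes, the added value, the count minimum, fragments, the study's thresholds, doublets, cluster resolution, promoter distance, motif window, RNA fold and fragment length.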

Additional observations from a re-analysis of the deposited data

How the results depend on the processing

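Membership followed the count minimum most. Of the 500 members, 333 stayed when 200 nuclei were taken in place of 400, 212 at a minimum of 50 counts and 99 at a minimum of 200 counts, and between 384 and 477 under the others. The median ratio of the same 500 peaks (5.058) was 5.369 with 200 nuclei, 4.047 with 600, 4.411 with the score lacking *Podxl*, *Aldh1a2* and *Tmem132d*, 5.919 and 3.331 with 0.1 and 5 CPM added, 5.423 without doublets, 5.347 with surface epithelium-like nuclei left out of the rest, and 5.234 with the 372 surface nuclei that RNA also called surface epithelium-like.

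The median share of a nucleus's cuts in members was 0.7157% in the outside surface epithelium-like nuclei, 1.021% at resolution 1.0 and 0.8215% without doublets. In Sertoli-like nuclei it was 0.2382%, then 0.2297% and 0.23% at resolutions 0.6 and 1.0, and in progenitor-like nuclei 0.1818%, then 0.1517% and 0.1624%. Without doublets it was 0.1215% in germ-like (0.128% with them) and 0.08285% in Leydig-like nuclei (0.09615%). The promoter share was 9.8% for coding genes (eligible peaks 29.69%) and 20.2% for the 500 peaks at 200 counts (49.22%). Over whole peaks 3 of the 30 words kept 1.5 times the eligible share, and the TEAD share was 62.2% against 41.44%. Some words turned in direction, namely NFY (72.0% against 65.44%), SOX (29.6% against 29.22%), MEIS (48.2% against 46.68%) and OSR (10.6% against 9.8%) over whole peaks, and WT1/EGR (3.67% against 3.082%), KLF (28.44% against 28.18%), RUNX (4.587% against 5.866%) and STAT (9.404% against 9.821%) in distal peaks. At 200 counts 9 words passed 1.5 times, AP-1, SOX (10.8% against 7.033%) and FOX (4.8% against 3.005%) among them and TBX (4.6% against 3.133%) no longer, and GRHL (2% against 1.419%), GLI (4.6% against 3.509%), SOX, the TCF21-type E-box (30.6% against 28.53%), KLF (36% against 35.25%) and NFY (31.8% against 31.55%) turned. The share of nearest genes higher in RNA was 32.95% at 1.5-fold (eligible peaks 10.3%), 10.69% at 4-fold (1.394%), 30.92% with 1 CPM added (7.821%) and 19.36% with 20 CPM (3.857%). Fragments under 100 bp were 51.44% of those at members in surface nuclei and 48.45% in the rest, below the 52.85% and 53.51% at eligible peaks, so the surface excess over eligible peaks at 150 bp turned. The cause of these moves was not tested, beyond the fewer peaks eligible at 200 counts. The limit to the surface epithelium-like nuclei, the nearest coding gene and the 200-count sets for position and words were chosen after seeing the data.

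No paired analysis was possible because each assay has 1 library and the labels give no groups. With 20 to 94 surface cuts behind each member, single peaks are imprecise, and a level of 0 in the smaller classes is within what their few cuts allow. How the number of embryos, free RNA and undetected doublets bear on the members was not tested.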
